A study of Mus musculus with 14 samples.

Results

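The Nr2f2-high pontine neurons were the cells of the postnatal day 5 (P5) libraries that passed a set of limits on raw UMIs (unique molecular identifiers, each counting 1 captured mRNA molecule). A cell had at least 1000 genes, under 10% of its UMIs from mitochondrial genes, at least 20 UMIs of Mapt, at least 1 of Slc17a6, at least 1 of Barhl1, none of En2, at least 3 of Nr2f2 and at most 1 of Hoxb5. These limits held 685 cells, 403 in P5 library 1 and 282 in P5 library 2, of 6605 neurons that passed the same limits at any Nr2f2 count (4082 and 2523). There were 17908 P5 cells past the quality limits and 150188 barcodes in all 14 libraries. The other 5920 neurons, with at most 2 UMIs of Nr2f2, were the reference and are called other PN neurons. PN neurons are the neurons of the pontine nuclei.

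Pontine nuclei neurons are glutamatergic relay cells that receive cortical input and send mossy fibres to the cerebellar granule cells. They arise from the rhombic lip, a dorsal germinal zone where the transcription factor Atoh1 is expressed, and migrate to the ventral pons before birth. Nr2f2 (COUP-TFII) is an orphan nuclear receptor that, with its paralog Nr2f1 (COUP-TFI), sets neuronal identity and migration in several brain regions. Met is the receptor tyrosine kinase for hepatocyte growth factor, Lrrn3 is a neuronal leucine-rich repeat membrane protein, and Grik1 is a kainate-type glutamate receptor subunit.

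The study profiled sorted TdTom+ cells with 10x Genomics 3' single-cell RNA-seq in C57BL/6J mice. The P5 libraries came from control pups, Atoh1Cre/+; Rosa lsl-tdTomato/+, whose microdissected pontine nuclei were pooled before dissociation, so no value is from a single animal. The E14.5 and E18.5 libraries, 3 per genotype, each came from the whole hindbrain of 1 embryo, either control or Atoh1S193A/- (Atoh1Cre/S193A; Rosa lsl-tdTomato/+), where the S193A allele has partial function. Control animals also lacked 1 working Atoh1 copy, since Cre replaced its coding sequence, and the reporter marks every cell with an Atoh1Cre history and not PN neurons alone. No P5 library was from the mutant.

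The P5 libraries held 236964126 and 160411671 UMIs. Nr2f2-high neurons had a median of 29187 and 32586.5 UMIs per cell in library 1 and library 2, near the 28257 and 31878 of other PN neurons. They gave 12987906 and 9743568 summed UMIs against 113314550 and 77818142. Between the libraries 38 barcodes were shared, none of them of an Nr2f2-high cell. Doublet scores were among the top 7.5% of their library in 15.4% and 15.96% of Nr2f2-high neurons and in 9.70% and 11.4% of other PN neurons, and these cells were kept. Some barcodes of the gate fell in clusters led by oligodendrocyte, astrocyte, microglia or mural genes. These clusters held 61 Nr2f2-high neurons (8.91%) and 332 others (5.61%), and values without them are given below wherever a call was lost.

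The neuronal limits applied alike to both classes. Levels below are counts per 1000000 summed UMIs (CPM). Mapt, which encodes the axonal protein tau, stood at 1952 and 1932 CPM in Nr2f2-high neurons and at 1973 and 1981 CPM in other PN neurons. Slc17a6, the vesicular glutamate transporter VGLUT2, stood at 221 and 251 CPM against 231 and 266 CPM. Barhl1, a rhombic lip homeobox factor, stood at 175 and 182 CPM against 182 and 191 CPM.

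Nr2f2 (chr7:70351944-70366735, minus strand, GRCm38) stood at 181.4 and 193.3 CPM in the chosen cells and at 9.45 and 6.82 CPM in the others. The chosen cells had a median of 5 Nr2f2 UMIs in each library and at most 31 and 25. In 70.0% and 72.9% of all gated neurons no Nr2f2 UMI was found. Just inside the limit, 121 and 67 cells had exactly 3 UMIs, and just outside it, 251 and 129 cells had 2. The Nr2f2-high cells made up 9.87% (95% Wilson interval 8.99% to 10.8%) of gated neurons in library 1 and 11.2% (10.0% to 12.5%) in library 2, a mean of 10.5% ± 0.922 (SD, n = 2). The intervals cover counting error only.

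The label was checked against Met, Lrrn3 and Grik1. These genes, and the markers of the Nr2f2 subtype that the study calls PN5, were picked from these same libraries, so their levels at P5 describe the cells and are not independent evidence. Met (chr6:17463800-17573980, plus strand) stood higher at each step of the Nr2f2 count of the cell, at 4.71 CPM with 0 UMIs and at 9.67, 18.8, 31.0 and 46.4 CPM with 1, 2, 3 to 4, and 5 or more UMIs in library 1. In library 2 the same steps were 3.50, 8.10, 11.8, 19.5 and 41.0 CPM. The level thus stood higher at successive steps on both sides of the limit. Lrrn3 (chr12:41451668-41486431, minus strand) went from 69.6 to 291 CPM and from 56.9 to 240.4 CPM between the lowest and highest bin. Grik1 (chr16:87895900-88290265, minus strand) went from 20.3 to 71.6 CPM and from 19.9 to 85.4 CPM. Cells with exactly 3 Nr2f2 UMIs held 29.5 and 18.6 CPM of Met, 218 and 155 CPM of Lrrn3 and 41.5 and 45.3 CPM of Grik1.

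**Figure D1:**
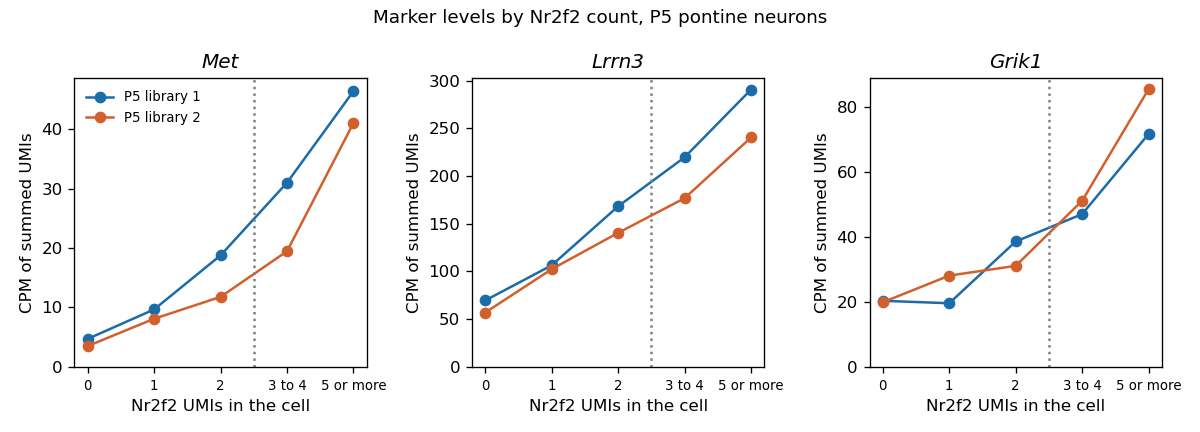
Level of Met, Lrrn3 and Grik1 (vertical axes, CPM of summed UMIs) by the number of Nr2f2 UMIs in the cell (horizontal axes) in gated P5 neurons, 1 line per library, with the dotted line at the limit of 3 UMIs. Met stood at 4.71 and 3.50 CPM in cells without Nr2f2 and at 46.4 and 41.0 CPM in cells with 5 or more UMIs.

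A Met UMI was found in 56.6% and 55.0% of Nr2f2-high neurons and in 12.9% and 10.7% of other PN neurons. For Lrrn3 the shares were 96.3% and 94.0% against 72.4% and 69.1%, and for Grik1 66.3% and 67.4% against 35.6% and 36.6%. After each cell was thinned to 6000 UMIs, which left out 1 other PN neuron of library 2, Met was seen in 18.6% and 15.96% against 3.59% and 2.902%. Microglia-like barcodes, which should lack these genes, gave a measure of free RNA in the droplets at median depths of 9866 and 10420 UMIs. Met was seen in 1.91% of 681 of them and in 0 of 501, where a floor of 3 counts allows a share of up to 0.599% and the 95% Wilson interval ends at 0.761%. Nr2f2 was seen in 5.43% and 2.59%, Lrrn3 in 11.2% and 3.79% and Grik1 in 4.26% and 1.60%. All of Met, Lrrn3 and Grik1 were found together in 43.4% and 41.5% of Nr2f2-high neurons and in 5.49% and 4.55% of others. After thinning to 6000 UMIs these shares were 4.96% and 3.90% against 0.462% and 0.179%. Joint detection thus fell with depth, and it does not give the share of cells that express all of these genes.

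Summed counts of Nr2f2-high neurons were then compared with those of other PN neurons of the same library (edgeR, library as a block, 1 residual degree of freedom per gene). A gene is called where the FDR is under 0.05 and the log2 change is over 0.25 in size. Of 11199 genes tested, 944 were called higher (8.43%) and 1051 lower (9.38%), 17.8% in all. These shares are the background for each count of list members against other PN neurons below. The libraries of the classes did not overlap for 5055 genes (45.1%). The median log2 change of all genes was 0.00. Without the library block the calls were 209 higher and 257 lower, and DESeq2 gave 460 and 615. On library size alone the calls were 1178 higher and 869 lower, with a median shift of 0.04 on the log2 scale.

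Among genes with a mean of at least 10 CPM, Met led those called higher. It stood at 39.1 and 31.9 CPM in Nr2f2-high neurons and 6.42 and 4.57 CPM in the others, a log2 difference of 2.66 ± 0.093 (SE, FDR 5.75e-15). Of the 18 tested genes of its signalling pathway, 3 were called higher and none lower, where 17.8% of all tested genes were called and 8.43% were higher, and the median of the list was 0.10. Met itself, a marker used for the label, is 1 of the 3. The other members called were adaptors. Gab1, a docking protein bound by activated Met, stood at 18.9 and 16.4 CPM against 7.95 and 6.25 CPM (log2 1.28 ± 0.11, FDR 4.02e-09). Crkl, an SH2 and SH3 adaptor, stood at 23.6 and 22.7 CPM against 19.0 and 17.7 CPM (log2 0.30 ± 0.079, FDR 0.00596), a call lost both without the library block and with DESeq2. The other 15 pathway genes were not called.

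The other large increases included receptors and secreted or adhesive proteins, whose share among all tested genes was not counted. Lgr5, the R-spondin receptor, stood at 25.3 and 19.1 CPM against 4.62 and 4.16 CPM (log2 2.31 ± 0.11). Ngfr, the p75 neurotrophin receptor, stood at 16.1 and 18.6 CPM against 4.08 and 3.30 CPM (log2 2.17 ± 0.13). Rph3a, a Rab3 effector on synaptic vesicles, stood at 41.7 and 42.3 CPM against 10.8 and 9.14 CPM (log2 2.03 ± 0.083). These genes were named from those whose classes did not overlap. Adamtsl1, an extracellular matrix protein, was at 20.17 and 20.01 CPM against 5.14 and 5.51 CPM (log2 1.89 ± 0.11). Thsd7a, a thrombospondin-repeat membrane protein, was at 69.1 and 65.0 CPM against 21.0 and 19.3 CPM (log2 1.70 ± 0.053). Lrrn3 was at 257 and 214 CPM against 81.9 and 67.6 CPM (log2 1.62 ± 0.036, FDR 9.46e-18). Cmtm8 and Tpd52l1 differed by 1.68 ± 0.15 and 1.62 ± 0.099 on the log2 scale. Against Cdkn1c-high neurons, defined below, Tpd52l1 was not called (log2 0.14 ± 0.10, FDR 0.390) and Cmtm8 was higher by 3.03 ± 0.24. Against Sst-high neurons the Cmtm8 difference was 0.53 ± 0.18. Rph3a was near its level in Etv1-high neurons (31.9 and 28.0 CPM in those, log2 0.44 ± 0.11). Its differences against Cdkn1c-high and Sst-high neurons were 1.54 ± 0.089 and 2.76 ± 0.10. Ptgds, prostaglandin D synthase, stood at 42.8 and 52.2 CPM against 11.1 and 8.21 CPM (log2 2.24 ± 0.11), but the log2 difference was 0.44 without the clusters led by other cell types. Met and Lgr5 kept 2.71 and 2.33 in that fit.

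**Figure D2:**
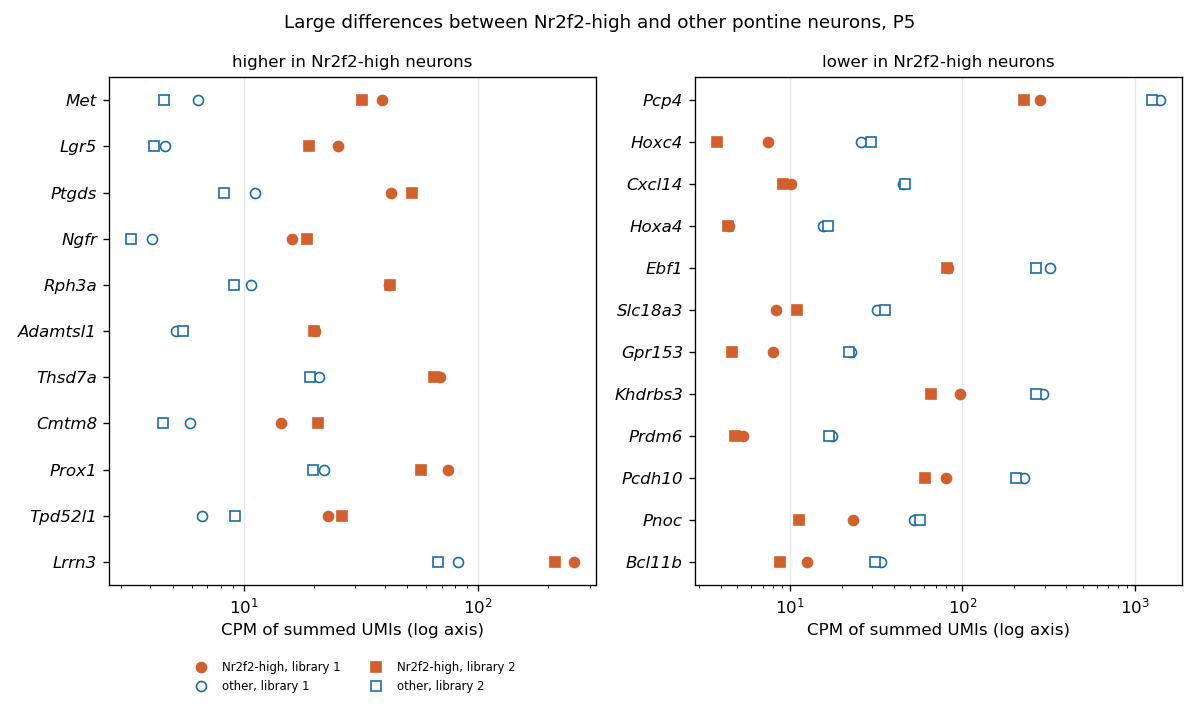
Level (CPM of summed UMIs, log axis) of 11 leading increases and 12 leading decreases in Nr2f2-high neurons (filled) and other PN neurons (open), circles for P5 library 1 and squares for library 2. The genes were chosen so that both filled points lie on the same side of both open points, and they go from Met at 39.1 and 31.9 CPM against 6.42 and 4.57 CPM to Bcl11b at 12.6 and 8.83 CPM against 33.7 and 31.3 CPM.

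Of the top PN5 markers of the study other than Nr2f2, all 9 were called higher, with a median log2 difference of 1.24. This list was chosen by the study on these libraries. Igfbp2, an insulin-like growth factor binding protein, stood at 179 and 223 CPM against 66.7 and 75.5 CPM (log2 1.46 ± 0.041). Spats2l stood at 87.7 and 79.6 CPM against 35.5 and 28.6 CPM (log2 1.34 ± 0.050). Lmo3, a LIM-only transcriptional regulator, stood at 110 and 117 CPM against 45.8 and 43.7 CPM (log2 1.30 ± 0.043). Among these markers, then, the log2 difference lay between those of Cadm1 (1.04) and Lrrn3 (1.62). Nrp1, a semaphorin co-receptor, differed by 1.14 ± 0.036 on the log2 scale, Phlda1 by 1.15 ± 0.034, Ly6d by 1.10 ± 0.039 and 2900055J20Rik by 1.24 ± 0.042. Against Cdkn1c-high neurons, defined below, Phlda1 was not called (log2 0.19 ± 0.044). The other markers tested were higher there, from Cadm1 (0.35 ± 0.049) to Lmo3 (2.23 ± 0.071). Cadm1, a synaptic adhesion molecule of the immunoglobulin family, stood at 534 and 700 CPM against 265 and 317 CPM.

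The markers of the other PN subtypes, chosen in the same way, were mostly lower, where 9.38% of all tested genes were lower and 8.43% higher. Of 10 tested PN1 markers 9 were called lower and none higher (median -1.18), and of 10 PN6 markers 9 lower and none higher (median -0.97). Of 10 PN2 markers 7 were lower and 1 higher (median -0.56), and of 8 PN4 markers 5 lower and 1 higher (median -0.60). The PN3 markers went the other way, with 6 of 10 higher and 2 lower (median 0.32). Those higher were Prox1, Phlda1, Kctd12, Meis2, Cdkn1c and Syt4, and Phlda1 is also on the PN5 list. Prox1, a homeodomain regulator of neuronal differentiation, stood at 74.7 and 57.4 CPM against 22.0 and 19.7 CPM (log2 1.63 ± 0.059). Gstm1 and Zbtb20, the other PN3 markers called, were lower. These directions hold against all other PN neurons, and those of the PN1, PN3 and PN6 markers turned against Cdkn1c-high neurons alone, as given below.

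Among genes with a mean of at least 10 CPM, the largest fall was in Pcp4, a calmodulin-binding regulator. It stood at 283 and 227 CPM in Nr2f2-high neurons and 1389 and 1251 CPM in the others (log2 -2.41 ± 0.028, FDR 4.86e-23). It was as low in Cdkn1c-high neurons, defined below, at 255 and 197 CPM (log2 0.14 ± 0.066, FDR 0.174, not called). Ebf1, a helix-loop-helix transcription factor, stood at 82.2 and 82.0 CPM against 324 and 266 CPM (log2 -1.88 ± 0.046). Pcdh10, a protocadherin, stood at 80.5 and 61.2 CPM against 227 and 204 CPM (log2 -1.64 ± 0.047). These are PN1 markers, and none was absent from the Nr2f2-high cells. Khdrbs3, an RNA-binding splicing regulator, was at 96.9 and 66.1 CPM against 292 and 265 CPM (log2 -1.80 ± 0.058). Slc18a3, the vesicular acetylcholine transporter, was at 8.39 and 11.0 CPM against 32.0 and 35.6 CPM (log2 -1.85 ± 0.085). Gpr153, an orphan receptor, and Prdm6, a chromatin regulator, were lower by -1.82 ± 0.13 and -1.79 ± 0.12 on the log2 scale. Against Cdkn1c-high neurons, Gpr153 (log2 0.26 ± 0.17) and Prdm6 (0.44 ± 0.20) were not called, and Slc18a3 was higher (1.14 ± 0.16). Khdrbs3 (-1.50 ± 0.078) and Pcdh10 (-0.77 ± 0.067) were lower there too. Chat, the acetylcholine-synthesising enzyme, was low in both classes, at 1.69 and 1.03 CPM against 5.68 and 5.06 CPM (log2 -1.98 ± 0.22).

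Transcription factors moved in both directions. Nr2f1 (chr13:78188973-78199757, minus strand) stood at 106 and 115 CPM against 43.0 and 45.3 CPM (log2 1.29 ± 0.040, FDR 1.24e-15), so the paralog was higher in the same cells, both libraries above both. Of 12 tested genes on the list of COUP-TF receptors and partners, it was the one called higher. Bcl11a and Bcl11b, zinc-finger proteins also known as Ctip1 and Ctip2 for their binding to COUP-TF receptors, were the ones called lower. Bcl11a stood at 126 and 108 CPM against 269 and 236 CPM (log2 -1.15 ± 0.035), and Bcl11b at 12.6 and 8.83 CPM against 33.7 and 31.3 CPM (log2 -1.61 ± 0.089). Against Cdkn1c-high neurons, defined below, Bcl11b was instead higher (5.84 and 3.76 CPM in those, log2 1.12 ± 0.17, FDR 8.41e-05). It was lower against Etv1-high (log2 -3.70 ± 0.11) and Sst-high neurons (-2.01 ± 0.11). The median of the list was 0.04.

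Promoter sequences (RefSeq, GRCm38.p6, 250 bases before to 50 after the start) were searched for the COUP-TF half-site AGGTCA or its reverse complement TGACCT. The promoters of Met, the named gene with the largest rise, of Nrp1, a PN5 marker, and of Pcp4, the named gene with the largest fall, are shown 5′ to 3′ with the half-site in capitals. They lie at chr6:17463707-17464006, chr8:128358823-128359122 and chr16:96467356-96467655, all on the plus strand.
Met: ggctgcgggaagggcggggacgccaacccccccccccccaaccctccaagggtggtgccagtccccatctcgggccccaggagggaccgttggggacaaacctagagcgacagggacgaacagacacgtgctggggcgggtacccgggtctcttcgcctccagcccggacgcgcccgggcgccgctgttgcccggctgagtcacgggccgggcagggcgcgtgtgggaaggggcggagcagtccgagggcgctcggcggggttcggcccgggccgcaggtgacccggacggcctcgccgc
Nrp1: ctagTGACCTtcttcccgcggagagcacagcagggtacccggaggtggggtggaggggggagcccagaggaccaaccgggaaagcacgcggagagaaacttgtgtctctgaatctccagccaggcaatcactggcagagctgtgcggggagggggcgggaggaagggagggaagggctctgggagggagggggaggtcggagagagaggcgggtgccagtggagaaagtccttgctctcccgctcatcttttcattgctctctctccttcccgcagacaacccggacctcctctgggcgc
Pcp4: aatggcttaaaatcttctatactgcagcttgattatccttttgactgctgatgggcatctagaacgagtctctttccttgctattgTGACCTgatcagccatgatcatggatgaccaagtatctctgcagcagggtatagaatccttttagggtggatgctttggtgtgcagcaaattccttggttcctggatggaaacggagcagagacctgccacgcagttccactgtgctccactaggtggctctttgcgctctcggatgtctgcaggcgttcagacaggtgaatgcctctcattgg
Met held no half-site in this window, and Nrp1 and Pcp4 each held 1 in the reverse direction. Of the 5 PN5 markers with a promoter in the table, Nrp1 alone held one, and those of Nr2f2, Spats2l, Igfbp2 and Lmo3 held none. A half-site was found in 16.3% of all 32851 promoters of the table and in 11.6% of the 11321 of tested genes. It was found in 11.6% of the 939 promoters of genes called higher and in 13.7% of the 1074 of genes called lower, shares close to that of all tested genes. Of the 12 genes with the largest rise, 8 had an entry, and none of their 11 promoters held it.

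Among 28 tested hindbrain transcription factors, 8 were called higher and 6 lower (median -0.08), against 8.43% and 9.38% of all tested genes. The zinc-finger factors Zic5 and Zic2 were higher by 0.49 ± 0.036 and 0.35 ± 0.029 on the log2 scale, and Zic1 was not called at 0.02 ± 0.023. Nhlh2, a neuronal helix-loop-helix factor, stood at 50.9 and 61.0 CPM against 25.2 and 26.2 CPM (log2 1.07 ± 0.058). Of 10 tested PN identity genes it was the one called higher, while Hoxb4, Slc17a7, Barhl2 and Hoxb2 were called lower and the median was -0.19. The Barhl2 call was lost both without the library block and with DESeq2. Pax6, a rhombic lip transcription factor, differed by 0.13 and was not called. Slc17a7, the VGLUT1 transporter, stood at 15.6 and 11.7 CPM against 34.7 and 32.5 CPM (log2 -1.32 ± 0.081).

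Hox genes, which give hindbrain neurons their position along the body axis, were lower in Nr2f2-high neurons. Of 7 tested, 6 were called lower and none higher (median -0.47), and Hoxb5, which the limits used, is not among them. Hoxc4 stood at 7.47 and 3.797 CPM against 26.0 and 29.8 CPM (log2 -2.27 ± 0.14). Hoxa4 stood at 4.47 and 4.41 CPM against 15.5 and 16.7 CPM (log2 -1.89 ± 0.13), and Hoxb4 at 3.93 and 2.46 CPM against 8.69 and 9.05 CPM (log2 -1.46 ± 0.17). Smaller differences were seen in the more anterior Hoxa3 (log2 -0.47 ± 0.097) and Hoxb2 (log2 -0.38). Both classes were held to at most 1 UMI of Hoxb5, which stood at 1.23 and 0.411 CPM against 2.16 and 1.59 CPM. With any Hoxb5 count allowed in the reference, 959 genes were called higher and 1155 lower. Among the Hox cofactors, Meis2 and Meis1 were higher and Pbx4 and Meis3 lower, of 7 tested. The calls of Hoxa3, Meis1 and Meis3 were lost both without the library block and with DESeq2.

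Few genes of other rhombic lip lineages were detected widely enough to be tested. Lhx2, a LIM homeodomain factor, stood at 6.01 and 6.98 CPM against 1.40 and 1.22 CPM (log2 2.24 ± 0.18), and Reln, the secreted glycoprotein reelin, at 78.9 and 72.8 CPM against 35.1 and 34.5 CPM (log2 1.09 ± 0.048). Calca was lower. The summed level of the 12 markers was 99.2 and 90.9 CPM in Nr2f2-high neurons and 56.1 and 54.6 CPM in the others. Reln made up most of this sum in both classes, so the sum does not show a rise of the list as a whole. The part of cells from other lineages in these differences was not tested.

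Of 24 tested glutamate receptor genes, 11 were called lower and 2 higher, with a median of -0.30, where 9.38% of all tested genes were lower and 8.43% higher. Grik1 was the main exception, at 60.0 and 70.9 CPM against 21.4 and 21.6 CPM (log2 1.56 ± 0.059, FDR 1.70e-14). Grin2a, an NMDA receptor subunit, was higher by 0.35 ± 0.13. Gria3, an AMPA receptor subunit, stood at 26.5 and 15.9 CPM against 62.7 and 53.7 CPM (log2 -1.47 ± 0.078). Grin3a, an NMDA receptor subunit, stood at 37.3 and 24.0 CPM against 84.2 and 75.9 CPM (log2 -1.40 ± 0.071). The metabotropic receptors Grm8 and Grm7 were lower by -1.59 ± 0.16 and -1.23 ± 0.066 on the log2 scale. Gria2, the subunit that limits calcium entry through AMPA receptors, was not called (532 and 383 CPM against 554 and 397 CPM). Of 16 GABA and glycine receptor genes 5 were lower and none higher (median -0.12), with Gabra5 at 112 and 111 CPM against 153 and 153 CPM (log2 -0.49 ± 0.038).

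Guidance and adhesion genes were split, where 8.43% of all tested genes were higher and 9.38% lower. Of 28 semaphorin, neuropilin and plexin genes, 7 were called higher and 6 lower (median 0.08). Both neuropilins were higher, Nrp1 at 241 and 201 CPM against 108 and 88.1 CPM and Nrp2 at 103 and 88.3 CPM against 51.9 and 43.0 CPM (log2 0.97 ± 0.042). Plxna4, a plexin that pairs with neuropilins, was higher by 0.61 ± 0.050, and Plxnd1 was lower by -0.99 ± 0.088 on the log2 scale. Of 27 Slit, netrin and Eph genes, 5 were higher and 10 lower (median -0.16). The repulsive Slit receptor Robo2 stood at 87.2 and 73.6 CPM against 122 and 112 CPM (log2 -0.57 ± 0.044), and Robo1 was higher by 0.41 ± 0.10. The netrin receptor Dcc was low in both classes, at 2.93 and 2.26 CPM against 4.52 and 4.23 CPM (log2 -0.77 ± 0.19), and its call was lost both without the library block and with DESeq2.

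Of 20 cadherins and protocadherins, 6 were higher and 9 lower (median -0.27), against 8.43% and 9.38% of all tested genes. Cdh6, a classical cadherin, stood at 20.5 and 20.3 CPM against 8.54 and 8.38 CPM (log2 1.23 ± 0.097). Of 28 immunoglobulin-type and other adhesion genes, 7 were higher and 6 lower (median -0.04). Sdk2, a homophilic synaptic adhesion protein, stood at 38.4 and 38.8 CPM against 13.3 and 13.6 CPM (log2 1.49 ± 0.074), while the presynaptic organiser Nrxn3 stood at 103 and 80.9 CPM against 199 and 189 CPM (log2 -1.11 ± 0.049). Of 23 leucine-rich repeat genes, 5 were higher and 5 lower (median -0.04), with Lrrtm1 lower by -1.06 ± 0.10. Of 6 C1q-like and cerebellin genes 3 were higher and none lower (median 0.24). These were Cbln2, at 11.4 and 9.96 CPM against 4.89 and 4.55 CPM, C1ql3 and Cbln4.

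Of 20 neuropeptide and secreted binding protein genes, 5 were higher and 10 lower (median -0.19). Over all tested genes, 8.43% were higher and 9.38% lower. Fstl1, a secreted follistatin-like protein, stood at 56.4 and 64.4 CPM against 18.8 and 19.9 CPM (log2 1.60 ± 0.056), and Dkk3 at 39.8 and 50.3 CPM against 15.96 and 15.39 CPM (log2 1.47 ± 0.080). Adcyap1, the peptide PACAP, stood at 13.9 and 14.4 CPM against 39.7 and 45.0 CPM (log2 -1.61 ± 0.071). Bdnf, a neurotrophin, stood at 55.7 and 47.6 CPM against 141 and 135 CPM (log2 -1.45 ± 0.049). Pnoc, the nociceptin precursor, and Sostdc1, a BMP and Wnt antagonist, were lower by -1.63 ± 0.13 and -1.52 ± 0.070. Of 28 potassium channel genes 5 were higher and 9 lower (median -0.10), and of 24 sodium, calcium and HCN channel genes 1 was higher and 7 lower (median -0.04). Kcnd2, an A-type channel, was at 282 and 298 CPM against 161 and 168 CPM (log2 0.78 ± 0.031), and the leak channels Kcnk9 and Kcnk2 were lower by -0.90 ± 0.069 and -0.83 ± 0.061.

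Of 16 late maturation genes, 5 were called lower and none higher (median -0.08), where 9.38% of all tested genes were lower and 8.43% higher. Nefm, a neurofilament subunit, stood at 142 and 131 CPM against 255 and 228 CPM (log2 -0.86 ± 0.034), and Nefl at 680 and 712 CPM against 925 and 1005 CPM (log2 -0.51 ± 0.019). Of 13 early maturation genes, 1 was higher (Nhlh2) and 3 were lower (Neurod6, Gap43 and Tubb3, median -0.12). The calls of Gap43 and Tubb3 were lost without the clusters led by other cell types, at -0.25 for each. Dissociation response genes were called higher in 7 of 13 and lower in none (median 0.31), with Ier5 at 188 and 203 CPM against 130 and 144 CPM (log2 0.48 ± 0.035). Their part in the other differences was not tested.

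Markers of astrocytes were higher in Nr2f2-high neurons. Of 6 tested astrocyte markers 5 were called higher (median 0.72), and the summed level of the list was 434 and 501 CPM against 255 and 260 CPM. Fabp7, a fatty acid binding protein of radial glia and astrocytes, was at 256 and 339 CPM against 133 and 146 CPM (log2 1.05 ± 0.043). Without the clusters led by other cell types its difference was -0.21, and Aqp4 and Aldoc came to 0.02 and 0.16 and were no longer called. Oligodendrocyte markers summed to 287 and 472 CPM against 385 and 245 CPM, and microglia markers to 98.8 and 23.5 CPM against 74.0 and 56.3 CPM, so both lists went in opposite directions in the 2 libraries. Of 3 tested oligodendrocyte genes, Olig1 was called higher. Mural and fibroblast markers summed to 57.4 and 21.9 CPM against 8.31 and 3.48 CPM, and no gene of that list or of the microglia list was detected widely enough to be tested. At least 3 vascular UMIs were found in 18 Nr2f2-high neurons of library 1 (4.47%) and 10 of library 2 (3.55%), against 2.69% and 5.09% of others. In the fit without every cell with any UMI of a vascular marker, 669 genes were higher and 829 lower, and 107 of 117 named genes kept their calls, 8 lost them and the rest were not tested.

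The Nr2f2-high cells were then located among clusters of all gated neurons made without the gate genes, Met, Lrrn3 and Grik1. Cluster 7 (382 cells) held 46.0% of them (43.7% and 49.3% by library), and 82.5% of its cells were Nr2f2-high. Its leading genes were Ngfr, Dkk3, Rph3a, Lgr5 and Thsd7a. Cluster 2 (605 cells), with Gstm1, Prox1 and Cdkn1c among its leading genes, held another 20.6%, where they were 23.3% of its cells. Cluster 14 (135 cells) held 5.55%, and no other cluster held more than 4.38%. In 2 small clusters they were a large part of the cells. Cluster 17 (39 cells), with Neurod1, Eomes and Otx2 among its leading genes, held 16 of them, which were 41.0% of its cells. Cluster 18 (15 cells), led by mural and fibroblast genes, held 8 (53.3%). Cluster 17 was kept in the fit without the clusters led by other cell types, and its part in the results was not tested. The limits therefore took in cells of more than 1 cluster, and no name is given to them beyond the Nr2f2 count.

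**Figure D3:**
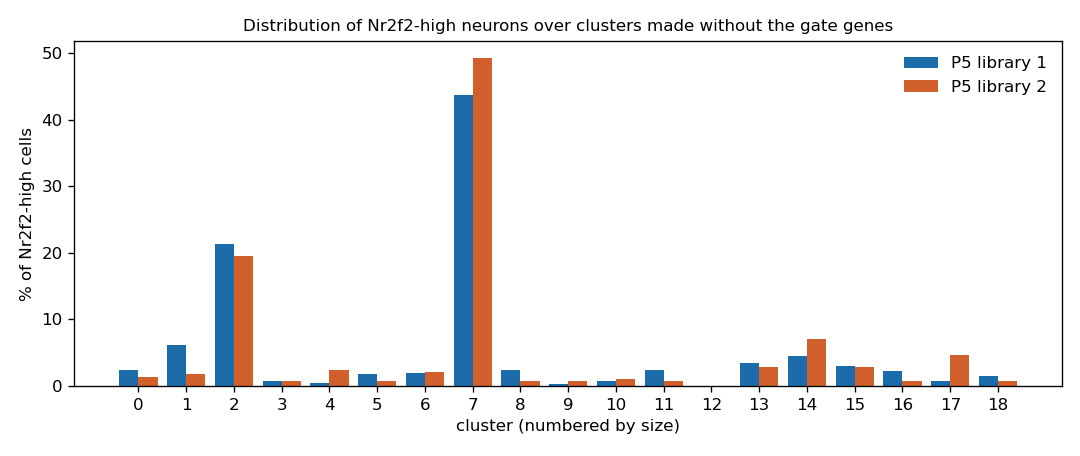
Percent of the Nr2f2-high neurons of each P5 library (vertical axis) in each of the 19 clusters of gated neurons (horizontal axis, numbered by size). Cluster 7 held 43.7% and 49.3% of them and cluster 2 held 21.3% and 19.5%.

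Levels differed between the clusters even among Nr2f2-high cells. Met stood at 53.7 and 41.4 CPM in those of cluster 7 and at 56.9 and 40.7 CPM in those of cluster 2, but at 13.4 and 13.4 CPM in those of cluster 14. Among these 3 clusters, Grik1 was highest in those of cluster 14 (110 and 130 CPM), and stood at 79.6 and 88.3 CPM in cluster 7 and at 45.0 and 59.7 CPM in cluster 2. Prox1 was at 142 and 138 CPM in cluster 2, where the other PN neurons had 117 and 105 CPM. The peptide Sst stood at 2788 and 2848 CPM in those of cluster 14, and at 2677 and 3276 CPM in its other PN neurons. Met in the other PN neurons of clusters 7, 2 and 14 stood at 29.5 and 21.7, 31.1 and 20.1, and 13.6 and 3.84 CPM. Grik1 in these cells stood at 55.8 and 43.5, 26.9 and 29.7, and 67.7 and 82.1 CPM. In cluster 7 they were 51 and 16 cells. Met and Grik1 were left out of the clustering, but the cells were chosen by Nr2f2 and the other genes helped to build the clusters, so the values are a description.

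Cells past the limits of 3 other PN classes overlapped with them. At least 5 UMIs of Cdkn1c, a cell cycle inhibitor, were found in 37.5% and 36.5% of Nr2f2-high neurons and in 24.2% and 30.3% of others. At least 30 UMIs of Sst were found in 16.6% and 21.6% against 24.2% and 26.6%, and at least 3 of Etv1, an ETS transcription factor, in 2.48% and 2.48% against 4.95% and 4.91%.

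Against each of these classes among cells with at most 2 Nr2f2 UMIs, the number of genes called differed. Each class left out cells that also passed another of these limits, while Nr2f2-high neurons past any of them were kept. The part of this in the differences was not tested. Against 828 and 636 Cdkn1c-high neurons, 866 genes were higher (7.4%) and 740 lower (6.32%) of 11707, 13.7% in all. Against 787 and 518 Sst-high neurons 1417 were higher (12.1%) and 1451 lower (12.4%), 24.5% in all, and against 126 and 66 Etv1-high neurons 1685 were higher (14.4%) and 1750 lower (14.9%), 29.3% in all. The classes differ in size and the 3 comparisons share the Nr2f2-high sums, so these counts were not tested against each other.

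Against Cdkn1c-high neurons, Nr2f2-high neurons had more Fam19a1 (94.2 and 102 CPM against 20.6 and 16.8 CPM, log2 2.34 ± 0.075), a secreted chemokine-like protein. They had more Lmo3 (log2 2.23 ± 0.071), Cxcl12 (2.13 ± 0.12), Ptgds (1.92 ± 0.14) and Grik1 (1.88 ± 0.069). They had less Hoxc4 (log2 -2.18 ± 0.18), Vstm2b (-1.94 ± 0.19), Ntng1 (-1.91 ± 0.12), Gstm1 (-1.90 ± 0.064) and Grin3a (-1.88 ± 0.085). Met was higher by 1.63 ± 0.10, at 39.1 and 31.9 CPM against 13.7 and 8.53 CPM. Of 9 tested PN1 markers 7 were higher and 1 lower (median 0.98), with Ebf1 at 0.98 and Pnoc at 1.52 on the log2 scale. Of 9 PN6 markers 7 were higher and none lower (median 0.45). Sst and Etv1 are markers of PN1 and PN6. Cells past their limits were left out of this reference and not of the Nr2f2-high class, which favours this direction. Of 9 PN3 markers 7 were lower and none higher (median -0.61). Cdkn1c, by which this reference was chosen, is itself a PN3 marker, and that list came from these libraries. The direction of the PN3 markers thus follows from the choice of the reference and is no independent result. Prox1, which was higher against all other PN neurons, differed here by -0.02 and was not called.

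Only genes with a mean of at least 10 CPM were ranked in the contrasts that follow. Against Sst-high neurons the largest increases included Prox1 (log2 4.27 ± 0.092), Gm36529 (3.17 ± 0.14), Ezr (3.13 ± 0.10) and Tpd52l1 (2.97 ± 0.14). The largest falls were Pcp4 (283 and 227 CPM against 2212 and 2147 CPM, log2 -3.12 ± 0.066), Ebf1 (-3.06 ± 0.083), Pnoc (-3.01 ± 0.14), Slc18a3 (-2.84 ± 0.10) and the galanin receptor Galr1 (-2.81 ± 0.12). Against Etv1-high neurons the largest increases included Met (39.1 and 31.9 CPM against 0.591 and 0.645 CPM, log2 5.85 ± 0.29), Prox1 (5.37 ± 0.18), Tpd52l1 (4.99 ± 0.32) and the neurotrophin-3 receptor Ntrk3 (4.42 ± 0.13). The falls were led by Rspo3 (log2 -4.99 ± 0.32), Igf1 (6.01 and 11.9 CPM against 200.3 and 229 CPM, -4.67 ± 0.12), Dmkn (-4.36 ± 0.13), Hoxc4 (-3.86 ± 0.18) and Lypd1 (-3.84 ± 0.17). Met was thus higher than in each of the 3 classes, while the Prox1 increase was called against 2 of them.

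The E18.5 control libraries, which the P5 limits had not used, were gated in the same way with at least 1 UMI of Hoxb3 or Hoxb4, since the whole hindbrain had been taken. They held 310 Nr2f2-high neurons of 1063, which were 92 of 254, 58 of 264 and 160 of 545 cells. Of 10568 genes 747 were called higher (7.07%) and 758 lower (7.17%), 14.2% in all. Without control replicate 3 the counts were 475 and 548. DESeq2 gave 202 and 256. High doublet scores were found in 18.1% to 25.9% of the Nr2f2-high cells and in 4.32% to 5.97% of the others, and their part in these calls was not tested.

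Met, Lrrn3 and Grik1 were called higher at E18.5 as well. Met stood at 13.4, 12.8 and 16.04 CPM against 11.6, 9.05 and 5.93 CPM (log2 0.77 ± 0.24, FDR 0.0244), higher in 3 of 3 libraries. Lrrn3 stood at 85.8, 109 and 106 CPM against 63.2, 70.2 and 67.1 CPM (log2 0.54 ± 0.080, FDR 2.42e-05). Grik1 stood at 18.4, 28.9 and 43.0 CPM against 18.4, 13.2 and 20.01 CPM (log2 0.78 ± 0.17, FDR 0.00197), so in replicate 1 the classes were level. Without replicate 3 the differences in Met (0.26) and Grik1 (0.42) were not called, and neither gene was called by DESeq2 or without the library block, while Lrrn3 was called in each of these. Nr2f1 stood at 220, 232 and 224.5 CPM against 69.0, 41.7 and 45.8 CPM (log2 2.08 ± 0.095, FDR 6.47e-14). Of 8 tested PN5 markers 6 were higher and none lower (median 0.41), and Cadm1 (0.06, FDR 0.574) and Spats2l (0.21, FDR 0.227) were not called. Without the requirement of Hoxb3 or Hoxb4, Cadm1, Nrp1, Phlda1 and 2900055J20Rik had the opposite sign, at -0.41, -0.32, -0.38 and -0.12.

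The genes called at P5 were looked up at E18.5, where 7.07% of all tested genes were higher and 7.17% lower. Of 944 higher at P5, 740 were tested at E18.5, where 216 (29.2%) were higher and 28 (3.78%) lower, with a median log2 difference of 0.24. Of 1051 lower at P5, 829 were tested, where 281 (33.9%) were lower and 42 (5.07%) higher, with a median of -0.25. From the other side, 643 genes higher at E18.5 were tested at P5, and 33.6% were higher there. Of the 752 lower at E18.5 and tested at P5, 37.4% were lower there. Of all genes tested at P5, 8.43% were higher and 9.38% lower. Khdrbs3 (log2 -1.71 ± 0.075), Hoxc4 (-1.69 ± 0.14), Gpr153 (-2.30 ± 0.27) and Adamtsl1 (2.19 ± 0.24) were called at both ages, and their stage differences, given by a class by stage test, were not called.

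**Figure D4:**
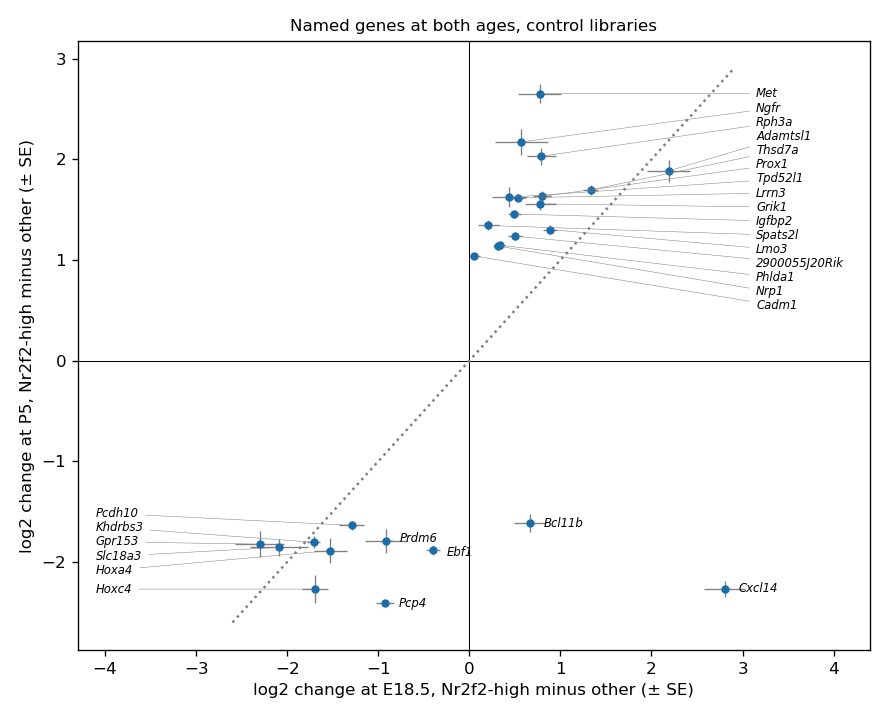
Log2 difference between Nr2f2-high and other neurons at P5 (vertical axis) and at E18.5 in control libraries (horizontal axis) for named genes tested at both ages, with bars of ± SE and a dotted line of equal difference. Met lies at 2.66 and 0.77, Khdrbs3 near the line at -1.80 and -1.71, and Cxcl14 at -2.27 and 2.80, with opposite signs.

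Other genes were named by their E18.5 differences. Nts, the neuropeptide neurotensin, stood at 201, 9.36 and 135 CPM against 6.59, 1.92 and 2.91 CPM (log2 5.02 ± 0.18), with replicate 2 far below the others. Otx2, a homeobox factor of the midbrain and the rhombic lip, stood at 131, 114 and 84.0 CPM against 19.8, 10.7 and 14.54 CPM (log2 2.73 ± 0.12). Ren1 and Stxbp6 were higher by 2.58 ± 0.21 and 2.24 ± 0.15. Sostdc1 (log2 -2.24 ± 0.14), Bdnf (-1.99 ± 0.17), Adra2a (-1.98 ± 0.17), Shisa6 (-1.91 ± 0.21) and Gm30382 (-1.91 ± 0.19) were lower. Markers of other rhombic lip lineages were higher in 4 of 5 tested at E18.5, with Eomes at 88.7, 37.4 and 67.5 CPM against 30.6, 10.7 and 14.3 CPM and Lhx2 at 37.2, 19.6 and 31.8 CPM against 11.1, 6.30 and 8.26 CPM. Their summed level was 349, 291 and 310 CPM in Nr2f2-high cells and 257, 125 and 160 CPM in the others, and their part in the E18.5 calls was not tested.

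A test of the difference between ages (class by stage, chosen after the values were seen) called 872 of 11147 genes (7.82%), 495 (4.44%) with the larger value at P5 and 377 (3.38%) with the larger value at E18.5. Met (1.85, FDR 7.58e-05), Lrrn3 (1.07, FDR 1.07e-07) and Grik1 (0.74, FDR 0.0150) had larger differences at P5. These genes were chosen for their difference at P5, which favours a larger difference at that age, so this is no independent sign of a change with age. Ngfr was called at P5 and not at E18.5 (0.57, FDR 0.197), and its stage difference was 1.59 (FDR 0.00500). Cxcl14, a chemokine, was higher in Nr2f2-high cells at E18.5 (31.4, 29.8 and 22.1 CPM against 5.53, 2.47 and 3.14 CPM) and lower at P5 (10.2 and 9.13 CPM against 45.4 and 46.5 CPM). At P5 Cxcl14 was as low in Cdkn1c-high neurons, at 10.6 and 7.42 CPM (log2 0.05 ± 0.16, FDR 0.863, not called). It was lower against Etv1-high (log2 -3.65 ± 0.13) and Sst-high neurons (-2.75 ± 0.12). Bcl11b and Cdh6 also had opposite signs, Bcl11b at 0.67 ± 0.18 at E18.5 and -1.61 ± 0.089 at P5, and Cdh6 at -1.69 ± 0.29 and 1.23 ± 0.097. The E18.5 difference of Bcl11b was 0.31 and not called without replicate 1. Age cannot be told apart here from dissection, since whole hindbrain was taken at E18.5 and the pontine nuclei at P5. Nor can it be told apart from the limits, since a Hoxb3 or Hoxb4 UMI was required only at E18.5.

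The share of Nr2f2-high cells at E18.5 was 36.2%, 22.0% and 29.4% in control embryos (mean 29.2% ± 7.13, SD, n = 3) and 24.8%, 18.4% and 13.5% in Atoh1S193A/- embryos (18.9% ± 5.68, n = 3). Each mutant embryo was taken with a littermate control, and the share was lower in the mutant in 3 of 3 same-numbered pairs. The groups overlapped, since 2 control values lay above all mutant values and the control of 22.0% lay below the mutant of 24.8%. The difference of -10.3 percentage points did not pass an exact two-sided permutation test (p = 0.2, where 3 against 3 cannot go below 0.1). Paired by replicate number, an exact sign-flip test gave p = 0.25, the smallest that 3 pairs can give. Without the requirement of Hoxb3 or Hoxb4 the difference was -3.94 points (exact permutation p = 0.7). There the pair of replicate 2 turned, at 41.3% in control and 48.9% in mutant. With at least 5 Nr2f2 UMIs the shares were 24.4%, 14.02% and 18.2% in control and 13.9%, 10.9% and 8.36% in mutant embryos, which did not overlap (-7.81 points, exact permutation p = 0.1). After thinning to 6000 UMIs they were 12.6%, 7.58% and 9.36% against 7.28%, 6.80% and 3.54%, again with no overlap (-3.97 points, exact permutation p = 0.1, the smallest possible). At E14.5 the shares were 31.3%, 42.1% and 31.1% in control and 26.9%, 58.4% and 36.3% in mutant embryos. The share at P5 is not compared with these because the tissue and the limits differed.

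**Figure D5:**
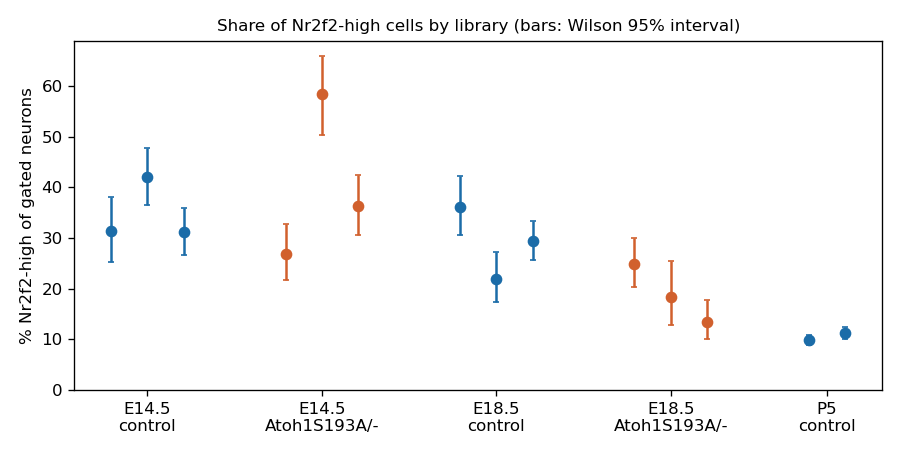
Percent of gated neurons that were Nr2f2-high (vertical axis) in each library by age and genotype, with 95% Wilson intervals as bars. At E18.5 the control libraries lie at 36.2%, 22.0% and 29.4% and the Atoh1S193A/- libraries at 24.8%, 18.4% and 13.5%, and the P5 control libraries at 9.87% and 11.2%.

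Within the Nr2f2-high cells of E18.5, few genes differed between genotypes. The S193A change is in 1 residue, so these 3' counts of Atoh1 do not check it. Of 10617 genes tested 2 were called higher (0.0188%) and 7 lower (0.0659%) in Atoh1S193A/-, 0.0848% in all (edgeR), and 616 had an unadjusted p under 0.05. With the replicate number as a block, 7 were higher and 14 lower, and the genes named next remained called. Crh, corticotropin-releasing hormone, stood at 20.1, 30.6 and 17.3 CPM in control and 0.566, 3.38 and 0 CPM in mutant cells (log2 -4.36 ± 0.57, FDR 0.00464). Lhx2 stood at 37.2, 19.6 and 31.8 CPM in control against 7.36, 6.75 and 10.8 CPM in mutant cells (log2 -1.92 ± 0.30, FDR 0.0190), and Tgfb2, a transforming growth factor, at 93.7, 104 and 101 CPM against 20.9, 23.6 and 52.6 CPM (log2 -1.73 ± 0.22, FDR 0.00464). Zfp36l1, an mRNA decay factor, was higher in mutant cells, at 53.8, 33.8 and 40.4 CPM against 20.5, 9.36 and 11.96 CPM in control cells (log2 1.65 ± 0.25, FDR 0.0155), as was Gad2, a GABA-synthesising enzyme (log2 0.78 ± 0.13, FDR 0.0377). No gene was called without Atoh1S193A/- replicate 1, and only 1 was called without Atoh1S193A/- replicate 2. Leaving out control replicate 3 gave 1 higher and 2 lower, and dropping the Hoxb3 or Hoxb4 requirement gave 1. Lhx2 is on the list of other rhombic lip lineages, and the part of cells from such lineages in these differences was not tested. Met (log2 -0.58 ± 0.33, FDR 0.938), Lrrn3 (-0.54 ± 0.24, FDR 0.839), Grik1 (-0.54 ± 0.41, FDR 0.964) and Nr2f1 (-0.25 ± 0.13, FDR 0.910) were not called.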

How the data were processed

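The authors sorted TdTom+DAPI- cells, built 10x Genomics 3' v3.1 libraries, aligned reads to mm10 with an added reporter sequence and deposited filtered matrices of raw UMI counts per gene and cell, made with Cell Ranger 5.0.1. The matrix headers name Cell Ranger 5.0.1 in 12 libraries and 3.1.0 in 2. Groups came from the sample titles. Raw counts were summed per library and class and tested with edgeR 4.0.16 in R 4.3.3 (quasi-likelihood test, TMM, Benjamini-Hochberg FDR). SE is the log2 change divided by the square root of F. A gene was tested where 10% or more of either class had a UMI of it, and the 6 gate genes were left out. Both classes of a library come from the same animals, so the library was a block. The block takes out the level of each library, so p-values of the class comparisons measure the spread of the class difference between libraries. With 2 P5 libraries they rest on a spread moderated across genes. Those of the genotype comparison measure the spread between embryos. Genotypes were compared without a block. Each mutant embryo had a littermate control, so same-numbered libraries were taken as pairs in the blocked fit, though the numbers are not said to mark litters. Deviations of same-numbered libraries correlated at 0.163, 0.0394 and 0.179. Clusters used scanpy 1.11.5 (2000 variable genes, 30 components, 15 neighbours, Leiden resolution 1.0). Doublets were scored with Scrublet and kept. The fits were tested on simulated counts.

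The members, gene lists and tests were chosen with earlier results of these data known. Genes are named by a rule, namely the 12 largest rises and 12 largest falls with a mean of at least 10 CPM and classes that did not overlap, all PN5 markers, and up to 4 of the called members of each list with the largest difference. The 5 largest in each direction with a mean of at least 10 CPM are named for the other class contrasts and for E18.5, and 3 for the genotype. Further list members (Bdnf, Dkk3, Kcnd2, Zic2, Zic5, Zic1, Pax6, Hoxb2, Gria2, Grin2a, Grm7, Plxna4, Robo1, Robo2, Eomes) were named after their values were seen. The alternatives without TMM, without vascular marker UMIs, with a Hoxb3 or Hoxb4 UMI, with any Hoxb5 in the reference and without clusters led by other cell types were chosen after seeing the data. DESeq2 1.42.0 was an alternative. Cells under 1% mitochondrial UMIs, as the methods state, were not selected here, and neither the authors' doublet calls nor their cluster labels were used here. Results for some genes are not reported here.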

Additional observations from a re-analysis of the deposited data

Results flagged for a closer look

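The difference between Nr2f2-high and other neurons changed between E18.5 and P5 in 23 genes. These are named as the largest rises or falls at P5 or as markers of the cells. The test of the class by stage interaction (edgeR FDR under 0.05) was chosen after the values were seen. It cannot separate age from dissection, or from the Hoxb3 or Hoxb4 UMI that was required only at E18.5. The genes had been named by their difference at P5 or as P5 markers, which favours a larger difference at P5, so the direction is no independent sign of a change with age. Of all 117 named genes 58 were called in that test, among them Cdh6 (2.95) and Nr2f1 (-0.80), which are not of the 23. The interaction (P5 minus E18.5, log2) was positive in Cmtm8 (2.44), Ptgds (2.22), Met (1.85), Lgr5 (1.59), Ngfr (1.59), Rph3a (1.22), Tpd52l1 (1.17), Spats2l (1.14), Lrrn3 (1.07), Cadm1 (0.98), Igfbp2 (0.96), Prox1 (0.82), Nrp1 (0.81), Phlda1 (0.80), Grik1 (0.74), 2900055J20Rik (0.73), Lmo3 (0.41) and Thsd7a (0.34). It was negative in Cxcl14 (-5.08), Pnoc (-3.44), Bcl11b (-2.25), Pcp4 (-1.47) and Ebf1 (-1.47). Cmtm8, Lgr5, Ptgds and Pnoc passed the detection limit of the joint fit and not that of the E18.5 fit, so their E18.5 levels were low.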

How the results depend on the processing

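At P5 the counts of calls moved most with the library block and the tool, and the cause was not tested. With no replicate block the calls were 209 higher and 257 lower against other PN neurons, 292 and 234 against Cdkn1c-high, 906 and 1002 against Etv1-high, 609 and 682 against Sst-high, and 355 and 378 at E18.5. With DESeq2 they were 460 and 615 against other PN neurons, 506 and 468 against Cdkn1c-high, 1156 and 1463 against Etv1-high, 840 and 1028 against Sst-high, and 202 and 256 at E18.5. Of 117 named genes called at P5, 32 lost the call with no block and 12 with DESeq2. Those with no block included Crkl, Barhl2, Hoxa3, Meis1, Meis3, Plxnd1, Dcc, C1ql3, Cbln4, Ier5, Gap43 and Tubb3, and those with DESeq2 included Crkl, Barhl2, Dcc, Hoxa3, Meis1 and Meis3. Without Hoxb3 or Hoxb4 as a requirement, E18.5 gave 1235 and 1320, and the sign turned in 2900055J20Rik (-0.12), Cadm1 (-0.41), Ebf1 (0.10), Efna5 (-0.41), Gria3 (-0.49), Ier5 (-0.30), Kctd12 (-0.55), Meis2 (-0.67), Neurod6 (0.85), Nrp1 (-0.32), Nrp2 (-0.54) and Phlda1 (-0.38). Each P5 library alone gave the same sign for all 117. These genes were called from the same libraries, so this agreement was largely set by their choice and is no independent check. Under the other alternatives run at P5 only Fabp7 turned among named genes, to -0.0413 without the highest Scrublet scores and -0.21 without clusters led by other cell types. Leaving out 1 replicate gave 475 to 682 higher and 548 to 746 lower at E18.5, shares of 9.87% to 11.2% at P5, and a genotype difference in share of -13.9 to -6.76 points.

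The mean P5 share was 16.2% with Nr2f2 of 2 or more, 5.88% with 5 or more and 1.52% after thinning to 6000 UMIs. Cluster 7 at the lower resolution of 0.5 held 50.2% of the cells. Between genotypes, with the number as a replicate block for the littermate pairs, 7 genes were higher and 14 lower, and the share difference of -10.3 points had an exact sign-flip p of 0.25, the smallest possible. DESeq2 gave 3 higher and 4 lower, no filter on low genes 38 and 44, no Hoxb3 or Hoxb4 requirement 1 and 0, and leaving out 1 embryo 0 to 2 and 0 to 7. Sums of 27 to 160 cells limit the E18.5 values.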
